A study of Mus musculus with 2 samples.

Results

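The genes described here build, take up, store and export cholesterol. They are 33 genes chosen by symbol, of the 32285 genes counted in each library: 17 enzymes of cholesterol synthesis, 5 genes of sterol sensing, 5 of lysosomal release, transfer and storage, 5 of the liver X receptor (LXR) and efflux arm, and 1 oxysterol enzyme, Ch25h. All 33 were found in both libraries. Each library held mononuclear cells from the quadriceps of wild-type C57BL/6J mice that had been injured by an intramuscular injection of barium chloride. One library was taken at 2 h after the injury and the other at 9 h, with no uninjured library analysed here. Cells were cryo-preserved before droplet 3′ sequencing, and the sources used here do not say how many animals stand behind a library. The series asks about the chemokine CCL2 in fibro-adipogenic progenitors (FAPs), the mesenchymal cells of muscle. With 1 library per time, the difference between the times has no replicate and no test across samples was made, and time and library cannot be told apart.

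Cells make cholesterol from acetyl-CoA through the mevalonate steps to farnesyl pyrophosphate, then through squalene and a series of sterol steps. When sterols are low in the membrane of the endoplasmic reticulum, the escort protein SCAP carries the SREBP transcription factors to the Golgi, where they are released to switch on the enzyme genes, and the INSIG proteins hold SCAP back when sterols are plentiful. When oxysterols accumulate, LXR receptors switch on the exporters Abca1 and Abcg1 and the ubiquitin ligase Mylip, which lowers the uptake of lipoproteins. Macrophages that clear dying cells take in large amounts of cholesterol, and the LXR arm is well known in them.

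Promoter sequences are shown first, because SREBP and LXR act on the enzyme and efflux genes through known DNA elements. RefSeq promoters (GRCm38.p6) were found for 27 of the 33 members, 14 of them enzymes. In the 250 bases before the start, searched on both strands, the sterol regulatory element TCACNCCAC was present in 1 member, Hmgcs1, 137 bases before the start, and in 1.22% of 27025 genes. The NF-Y box CCAAT, bound by a factor known to work with SREBP, was present in 21 of 27 members, 13 of 14 enzymes and 37.5% of all genes. A perfect form of the LXR element, AGGTCA repeated after 4 bases of any kind, was in none of the 27 members and in 0.0148% of all genes. Imperfect repeats were not searched and Abcg1 was not among the 27, so this absence says little about the efflux genes. Other forms of the sterol element were not searched either. Sqle, Fdft1, Fdps, Npc1 and Stard4 were also not among the 27, so other members may carry the element. A match is only a match of letters. The 150 bases before the start are shown for 5 enzymes of the pathway, 5′ to 3′ on the strand of the gene, with matches to either motif on either strand in capitals. Hmgcs1 is shown for the sterol element, and Pmvk, Sc5d, Ebp and Mvd for the contrast in their levels below. For Pmvk only a window with a CCAAT match was kept, a filter not applied to the other genes shown. They lie outside the gene on the GENCODE mm10 annotation, at chr13:119690201-119690350 (+) for Hmgcs1, chr3:89454391-89454540 (+) for Pmvk, chr8:122443423-122443572 (-) for Mvd, chr9:42264301-42264450 (-) for Sc5d and chrX:8193513-8193662 (-) for Ebp.
Hmgcs1: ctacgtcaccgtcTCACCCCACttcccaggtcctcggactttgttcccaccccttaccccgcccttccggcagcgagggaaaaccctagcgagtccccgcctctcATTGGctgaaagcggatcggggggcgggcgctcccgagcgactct
Pmvk: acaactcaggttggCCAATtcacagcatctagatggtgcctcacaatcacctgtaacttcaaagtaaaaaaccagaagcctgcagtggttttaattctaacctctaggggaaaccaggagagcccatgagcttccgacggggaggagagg
Mvd: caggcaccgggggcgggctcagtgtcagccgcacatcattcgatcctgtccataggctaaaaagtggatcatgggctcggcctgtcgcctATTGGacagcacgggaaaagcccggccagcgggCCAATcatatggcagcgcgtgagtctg
Sc5d: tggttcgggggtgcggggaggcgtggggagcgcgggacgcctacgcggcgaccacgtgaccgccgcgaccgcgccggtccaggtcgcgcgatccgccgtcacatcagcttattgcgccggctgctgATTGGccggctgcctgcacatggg
Ebp: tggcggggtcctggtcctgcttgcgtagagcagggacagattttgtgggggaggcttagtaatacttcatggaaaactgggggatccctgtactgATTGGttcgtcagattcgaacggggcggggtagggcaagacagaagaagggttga

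On the GENCODE M21 annotation (mm10) the protein-coding genes that the results turn on are spread over the genome. Hmgcs1 lies at chr13:119690379-119708260 (+), Idi1 at chr13:8885501-8892451 (+), Pmvk at chr3:89454541-89469013 (+), Cyp51 at chr5:4081145-4104746 (-), Soat1 at chr1:156424525-156474331 (-), Abca1 at chr4:53030787-53159895 (-) and Abcg1 at chr17:31057675-31117988 (+).

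After filtering, 4900 cells at 2 h and 8147 cells at 9 h remained, with 27598413 and 35127600 unique molecular identifiers (UMIs, each counting 1 captured RNA molecule) and medians of 4519 and 2327 UMIs per cell. Clustering gave 12 cell classes, named from their marker genes and written as "-like". The 6 classes with at least 100 cells in each library were compared: FAP-like (2000 cells at 2 h and 2365 at 9 h), neutrophil-like (1631 and 4294), endothelial-like (263 and 544), resident macrophage-like (316 and 234), monocyte-like (173 and 367) and dendritic-like (151 and 119). The levels below are sums of UMIs over the cells of a class, as counts per 1000000 UMIs of that class (CPM). Each interval in brackets covers 95% and counting error only. A gene is called higher or lower when its CPM differs 2-fold or more, provided that the libraries together hold 100 or more of its UMIs in that class (a measured gene), and the same rule over all measured genes gives the background. Of the 20 barcodes that both libraries shared, 12 were kept. Because a 3′ count is not a calibrated amount, the ratio of summed synthesis enzymes to summed efflux genes is read between classes and times and not as an amount.

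Most synthesis UMIs lay in FAP-like cells at both times, while the class with most efflux UMIs was FAP-like at 2 h and neutrophil-like at 9 h. Over all kept cells the 17 enzymes summed to 556 CPM at 2 h and 231 CPM at 9 h, while Abca1, Abcg1 and Mylip summed to 141 and 195 CPM. The ratio of the sums was 3.94 at 2 h and 1.19 at 9 h. FAP-like cells held 74.3% of the synthesis UMIs at 2 h and 58.2% at 9 h. FAP-like cells held 44.8% and 14.7% of the efflux UMIs. Neutrophil-like cells held 14.9% of them at 2 h and 54.3% at 9 h, when they made up 52.7% of kept cells against 33.3% at 2 h. FAP-like cells were 40.8% and 29.0% of kept cells. These shares of UMIs also follow the mix of cells and the UMIs per cell, which differed between classes. FAP-like cells held 16037450 of the 27598413 kept UMIs at 2 h and 19459108 of 35127600 at 9 h. The neutrophil-like cells held 3507165 and 8252483 of them.

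Class by class, the summed enzymes were lower at 9 h in FAP-like cells, at 711 and 243 CPM (2.92-fold, 2.83 to 3.02), and in neutrophil-like cells, at 360 and 107 CPM (3.36-fold, 3.08 to 3.67). In the neutrophil-like cells Pmvk alone carried most of this difference, and the other 16 enzymes summed to 127 and 90.5 CPM, a ratio of 0.715 (0.63 to 0.81). They were 344 and 262 CPM in resident macrophage-like cells, 288 and 336 CPM in monocyte-like cells and 158 and 192 CPM in endothelial-like cells. In dendritic-like cells they were 410 and 793 CPM (1.94-fold higher, 1.73 to 2.16). The efflux sum was lower at 9 h in FAP-like cells, at 109 and 51.9 CPM. It was higher in neutrophil-like cells, at 165 and 451 CPM (2.72-fold, 2.5 to 2.98). The efflux sum was 266 and 461 CPM in endothelial-like cells, 352 and 525 CPM in resident macrophage-like cells, 130 and 198 CPM in monocyte-like cells and 72.6 and 75.0 CPM in dendritic-like cells. Synthesis over efflux in neutrophil-like cells was 2.18 at 2 h and 0.238 at 9 h, with Pmvk in the sum, and in dendritic-like cells 5.64 and 10.6.

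**Figure D1:**
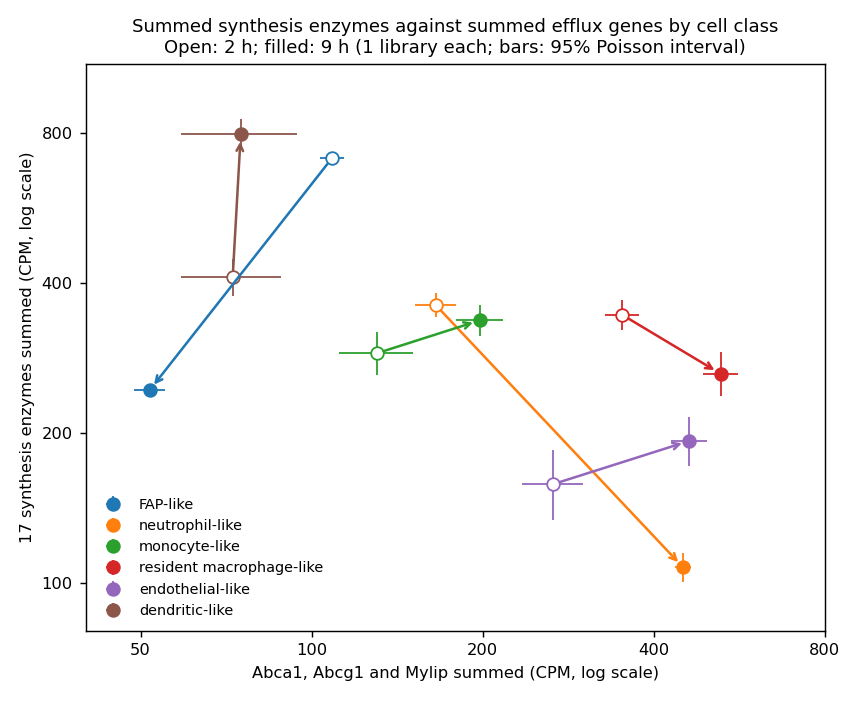
Summed CPM of the 17 synthesis enzymes (vertical, log scale) against summed CPM of Abca1, Abcg1 and Mylip (horizontal, log scale) in the 6 compared classes, with open points for the 2 h library, filled points for the 9 h library and bars for 95% Poisson intervals. The FAP-like arrow runs down and left from 711 to 243 CPM of synthesis, the neutrophil-like arrow runs down and right to 451 CPM of efflux, and the dendritic-like arrow runs up to 793 CPM.

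FAP-like cells had the highest summed synthesis level of the compared classes at 2 h, and most enzymes were lower at 9 h. Of the 33 members, 31 were measured (Lss and Abcg1 were not), and 18 were lower and 1 was higher, against 20.5% lower and 15.7% higher among all 10454 measured genes. Of the 17 enzymes, 16 were measured, 11 were lower and none was higher. The median log2 ratio was -1.38 for these enzymes and 0.00 for all measured genes. FAP-like cells of the 2 times lay in different clusters: clusters 0 (led by Sema3c and Pi16) and 1 (Col15a1) held most of them at 2 h, and clusters 5 (Cxcl5), 17 (Krtdap) and 18 (Saa1) at 9 h. All 15 FAP markers were seen in at least 10% of cells at 2 h and 14 at 9 h.

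Among the mevalonate steps, Hmgcs1, which makes the precursor HMG-CoA, stood at 137 CPM in the 2 h library and at 38.4 in the 9 h library, a level 3.57-fold lower (3.28 to 3.88). Idi1, which isomerises isopentenyl pyrophosphate, was 102 and 17.2 CPM, 5.93-fold lower (5.27 to 6.69). Pmvk, phosphomevalonate kinase, was 45.1 and 5.91 CPM, 7.63-fold lower (6.26 to 9.37). This was the lowest ratio among the 31 measured members. Fdps, which joins isoprenoid units into farnesyl pyrophosphate, was 40.2 and 7.66 CPM. The remaining early enzymes did not pass the mark. Mvk stood at 6.80 and 5.55 CPM, Mvd at 3.18 and 3.24, and Acat2 at 4.49 and 6.32. The near-identical paralog Acat3 makes the Acat2 count uncertain. After thinning each cell to 1000 UMIs, 10.7% of cells at 2 h and 3.63% at 9 h had an Hmgcs1 UMI, against 43.4% and 23.2% before thinning. In neutrophil-like cells, which carry little of the gene, the thinned shares were 0.455% and 1.01%.

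In the later steps 7 of 9 measured enzymes were lower. Cyp51, the lanosterol demethylase, was 64.8 and 17.4 CPM, 3.72-fold lower (3.29 to 4.22). Msmo1, the methylsterol oxidase, was 76.9 and 29.96 CPM, 2.57-fold lower. Sc5d, a sterol desaturase, was 59.4 and 15.1 CPM, 3.95-fold lower (3.46 to 4.51). Ebp, a sterol isomerase, was 39.9 and 16.9 CPM, and Fdft1, squalene synthase, 18.6 and 4.52. Nsdhl and Dhcr7 stood at 8.92 and 3.39 and at 4.55 and 2.06 CPM and passed the mark at low levels. The Dhcr7 ratio of 0.45 was 0.24 without the 1% of cells with the most UMIs of the gene and 0.59, short of the mark, at its highest. Dhcr7 had 73 and 40 UMIs in these cells, so that removal can take out a large part of the count. Sqle, the squalene epoxidase, stood at 44.5 and 38.7 CPM, a ratio of 0.87 (0.79 to 0.97), and Hsd17b7, a sterol reductase, at 51.6 and 29.3. The ratio of the epoxidase gene thus lay nearer to 1 than those of Fdft1 and Cyp51, the measured steps on either side of it. Fdft1 overlaps Ctsb and Cyp51 overlaps Akap9 on the other strand, and the strand setting of the counting was not given.

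Of the 5 sterol sensing genes, 3 were lower. Insig1, an SREBP target and brake, was 118 and 37.6 CPM, 3.14-fold lower (2.88 to 3.42), and Insig2 was 58.5 and 23.4. Srebf2, which encodes the SREBP that drives the synthesis genes, was 92.8 and 40.9 CPM, 2.27-fold lower (2.08 to 2.48). Srebf1 stood at 25.1 and 14.0 CPM and did not pass the mark. Scap stood at 15.1 and 24.1 CPM, a ratio of 1.60 (1.36 to 1.87).

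Of the 5 genes that free, move and store cholesterol, 3 were lower and 1 was higher. Lipa, the lysosomal acid lipase that frees cholesterol from esters, was 37.4 and 8.74 CPM, 4.28-fold lower (3.60 to 5.10), and Stard4, a sterol carrier, was 31.9 and 5.81, 5.50-fold lower (4.48 to 6.80). Npc1, the lysosomal exporter, was 32.2 and 15.1 CPM. Its partner Npc2 stood at 232 and 157 CPM, within the 2-fold mark. Soat1, which esterifies cholesterol for storage, was 21.1 and 45.5 CPM, 2.16-fold higher (1.90 to 2.45). Abca1 was 76.7 and 26.1 CPM, 2.94-fold lower (2.65 to 3.26), so this exporter was lower beside the synthesis genes in these cells. Nr1h2 and Nr1h3, the LXR receptors, stood at 31.1 and 19.7 and at 15.03 and 14.3 CPM. FAP-like cells held 87.0% of the Nr1h3 UMIs at 2 h and 84.0% at 9 h. Mylip stood at 30.5 and 21.8 CPM. Ch25h, the cholesterol hydroxylase, stood at 5.86 and 11.7 CPM, a ratio of 1.99 (1.56 to 2.56), at the edge of the mark, which it passed under 6 of 9 alternatives.

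**Figure D2:**
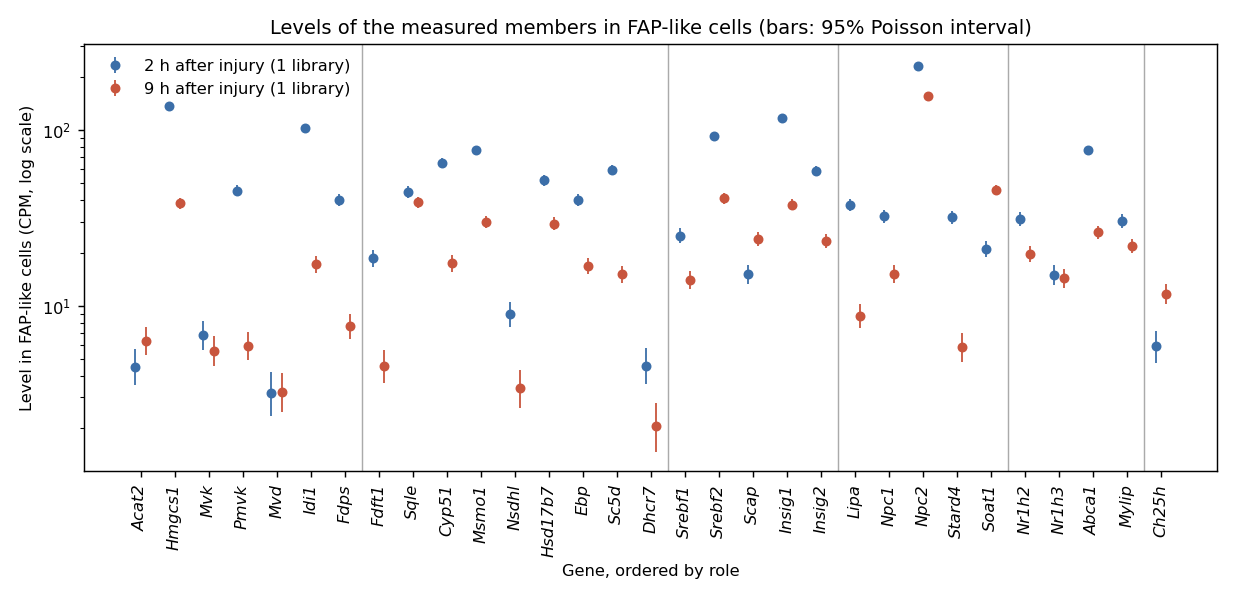
CPM on a log scale for the 31 measured members in FAP-like cells, ordered by role, with blue points for the 2 h library, red points for the 9 h library and bars for 95% Poisson intervals. Hmgcs1, Idi1, Cyp51 and Insig1 lie well lower at 9 h, Sqle lies nearly level, and Soat1 lies higher at 45.5 CPM.

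Each of the 3 FAP-like clusters summed in the 9 h library (5, 17 and 18) had a lower synthesis sum than both clusters summed in the 2 h library. Clusters 0 and 1 also held 19 and 33 cells at 9 h, which were not summed because they were few. The enzymes summed to 646 and 740 CPM in clusters 0 and 1 at 2 h, and to 233, 396 and 200 CPM in clusters 5, 17 and 18 at 9 h. The Krtdap-led cluster 17 had the highest synthesis sum of the 3 at 9 h and the Saa1-led cluster 18 the lowest. Abca1 was 100 CPM in cluster 0 and 65.9 in cluster 1, and 17.8, 34.4 and 43.1 CPM in clusters 5, 17 and 18. Nr1h3 was 27.9 CPM in cluster 18 against 11.2 in cluster 5, and Npc2 was 340 CPM in cluster 17 against 129 in cluster 5. Without the Saa1-led cluster, an alternative added after seeing the data, the synthesis ratio was 0.359 against 0.342, and Npc1 and Dhcr7 no longer passed the mark.

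**Figure D3:**
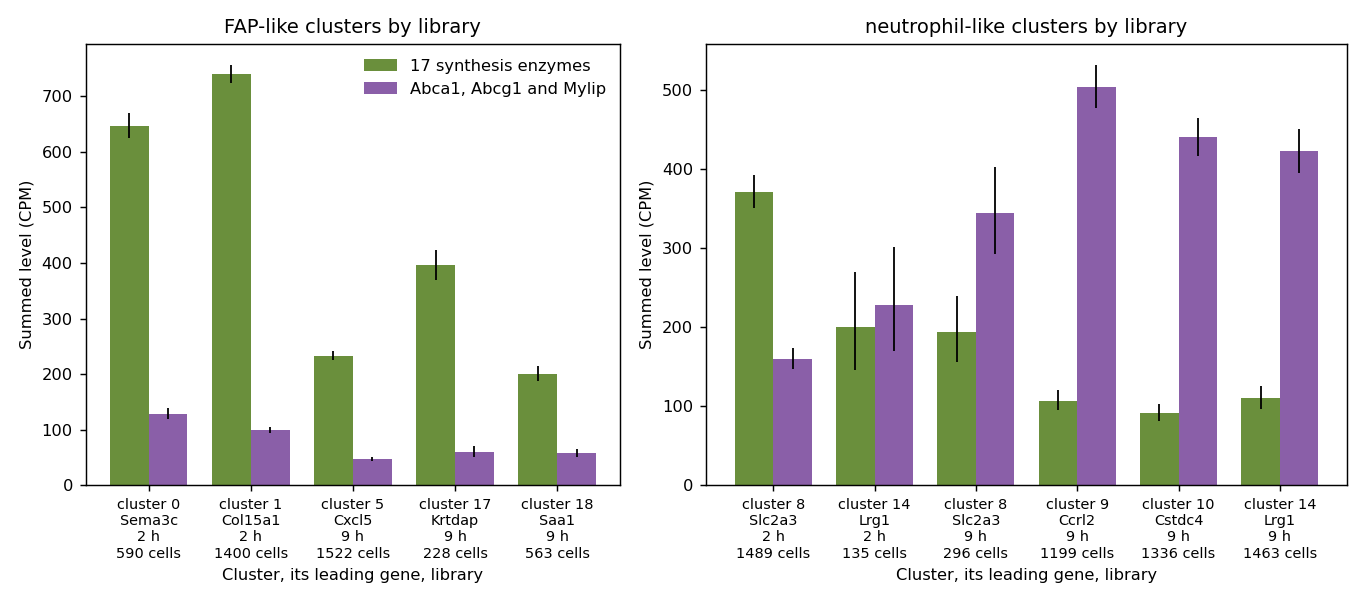
Summed CPM of the synthesis enzymes (green) and of Abca1, Abcg1 and Mylip (purple) for the FAP-like clusters (left) and neutrophil-like clusters (right), by library, with 95% Poisson bars and the number of cells under each. In every 9 h FAP-like cluster shown the green bar, at 396 CPM or less, is below both 2 h clusters. In every 9 h neutrophil-like cluster the purple bar is higher than the green, as it also is in cluster 14 at 2 h (228 against 201 CPM).

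Neutrophil-like cells had higher levels of the exporters at 9 h and low levels of most enzymes at both times. Of the 33 members, 14 were measured, and 3 were higher and 2 lower, against 9.34% higher and 10.1% lower among 4923 genes. Abca1 was 75.6 CPM in the 2 h library and 267 in the 9 h library, 3.54-fold higher (3.11 to 4.03). Abcg1 was 30.8 and 105 CPM, 3.42-fold higher (2.79 to 4.21). Mylip stood at 59.0 and 78.0 CPM. The 2 exporters had the highest ratios of the measured members in these cells. At 1000 UMIs per cell, 6.05% of cells had an Abca1 UMI at 2 h and 18.9% at 9 h (11.2% and 28.4% before thinning), and 3.12% and 9.80% had an Abcg1 UMI. The clusters differ in time: cluster 8 (Slc2a3) held most 2 h cells, and clusters 9 (Ccrl2), 10 (Cstdc4) and 14 (Lrg1) most 9 h cells. Within cluster 8 Abca1 was 71.2 CPM in 1489 cells at 2 h and 225 in 296 cells at 9 h, and within cluster 14 it was 132 and 254. At 9 h Abcg1 was 146 CPM in the Ccrl2-led cluster 9 and 80.2 in cluster 10.

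One enzyme, Pmvk, held 820 of the 1264 synthesis UMIs of neutrophil-like cells at 2 h. Pmvk was 234 CPM in the 2 h library and 16.7 in the 9 h library, 14.0-fold lower (11.7 to 16.9), a ratio of 0.072. Without the 1% of cells with the most UMIs of the gene the ratio was 0.043. That removal can take a larger part of the sparser 9 h count, so 0.043 is no check of the ratio. At 1000 UMIs per cell, 16.5% and 1.54% of thinned cells had a UMI. Within cluster 8 it was 246 and 87.3 CPM. Without Pmvk, an alternative added after seeing the data, the sum of the other enzymes was 127 and 90.5 CPM, a ratio of 0.715 (0.63 to 0.81). Sc5d was 79.6 and 37.4 CPM, 2.12-fold lower (1.80 to 2.51), but short of the mark under TMM scaling and with cells weighted equally (ratio 0.52 at the highest). Hmgcs1 was 5.42 and 11.3 CPM, a ratio of 2.08 from 19 and 93 UMIs, which was 1.90 without the highest doublet scores, short of the mark. Without the 1% of cells with the most UMIs of the gene the ratio was 19.6. With 19 UMIs in 1631 cells at 2 h, that removal can take out most of the count, so 19.6 is no check of the ratio. Idi1, with a UMI in 0.195% and 0.101% of thinned cells, was not measured. Soat1 stood at 84.4 and 95 CPM, Npc2 at 70.7 and 66.5, and Npc1 at 22.8 and 43.9, a ratio of 1.92 (1.51 to 2.48) that passed the mark in 2 of 8 alternatives. The other measured members were within the mark, with Msmo1 at 18.2 and 14.1 CPM, Srebf2 at 18.5 and 20.5, Insig1 at 13.4 and 18.4, Lipa at 29.7 and 36.96 and Nr1h2 at 56.2 and 40.96.

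Resident macrophage-like cells carried the highest Abca1 level of the compared classes, 261 CPM at 2 h and 394 at 9 h (1.51-fold, 1.34 to 1.69), which did not pass the mark. Neutrophil-like cells at 267 CPM and endothelial-like cells at 178 CPM followed at 9 h. Of the 33 members, 14 were measured, 1 higher and 1 lower, against 6.06% and 11% of 4388 genes. Soat1 was 58.7 and 150 CPM, 2.55-fold higher (2.05 to 3.18). Pmvk was 44.7 and 21.9 CPM. Neither call held under every cluster resolution: the Soat1 ratio was 1.69 at resolution 2 and the Pmvk ratio, 0.49, was 0.84 at resolution 0.5. The class was not the same set of cells there. At resolution 0.5 its cluster (452 and 351 cells) also took in dendritic-like cells, with H2-Eb1, Cd74 and Ccl17 among the leading genes. At resolution 2 it held 232 and 161 cells, and a cluster of 89 and 75 cells that scored best for macrophage markers was unnamed. Abcg1 stood at 31.1 and 51.9 CPM, Mylip at 60.0 and 79.2 and Npc2 at 735 and 744. The Abcg1 ratio of 1.67 (1.19 to 2.34) was 2.06 with cells weighted equally and 3.28 at resolution 2, both past the mark. Hmgcs1 stood at 42.5 and 36.9 CPM, Msmo1 at 36.8 and 32.1, Ebp at 45.6 and 37.6 and Insig1 at 89.8 and 81.98, and the Hmgcs1 ratio of 0.87 was 1.44 at resolution 0.5. Srebf2 stood at 76.7 and 43.04 CPM, a ratio of 0.56 that passed the mark in 3 of 8 alternatives. Lipa, Npc1 and Nr1h2 stood at 112 and 127, at 84.1 and 88.8 and at 35.9 and 39.6 CPM. The FAP marker Dcn was seen in these cells at 9.19% of its FAP-like level at 2 h and 3.42% at 9 h, and the part of such carried RNA in the synthesis sums was not tested.

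In monocyte-like cells, 13 members were measured and 2 were higher and 1 lower, against 5.97% and 8.52% of 4003 genes. Abca1 was 57.2 and 147 CPM, 2.58-fold higher (2.00 to 3.35), while Abcg1 stood at 51.3 and 28.8 CPM, a ratio of 0.56 (0.39 to 0.80). The ratios of the exporters thus lay on opposite sides of 1 in this class. Cyp51 was 17.1 and 37.1 CPM, 2.17-fold higher (1.35 to 3.61), from 23 and 81 UMIs. Lipa was 72.8 and 30.2 CPM, 2.41-fold lower (1.75 to 3.35). Npc2 stood at 1346 and 895 CPM, the highest in any compared class at both times, and Soat1 at 178 and 190. Insig1 stood at 83.2 and 114 CPM. The other measured members were within the mark, with Pmvk at 37.9 and 27.9 CPM, Msmo1 at 51.3 and 60.9, Ebp at 63.2 and 50.3, Srebf2 at 55 and 51.3, Npc1 at 81.8 and 109.8 and Nr1h2 at 58.7 and 42.6. The neutrophil marker S100a8 reached 2.23% of its neutrophil-like level in these cells at 2 h and 6.02% at 9 h. At that share, carried neutrophil RNA would give 16.1 CPM of Abca1 at 9 h.

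Endothelial-like cells had 7 measured members and no call in either direction, against 9.71% and 9.84% of 3963 genes. Abca1 stood at 90.8 and 178 CPM, a ratio of 1.96 (1.54 to 2.52), and Mylip at 148 and 259, a ratio of 1.75 (1.44 to 2.13). These passed the mark in 3 and 2 of 8 alternatives. Mylip was higher here than in any other compared class at both times. Ch25h stood at 73.0 and 41.6 CPM, Lipa at 113 and 85.1, Npc2 at 127 and 85.1 and Nr1h2 at 133 and 87.6. Ch25h was thus also highest in this class. Hmgcs1 was 38.6 and 39.2 CPM, and the other 16 enzymes were below the count minimum and not called. The synthesis ratio of 1.22 turned to 0.707 with cells of up to 10% mitochondrial UMIs. S100a8 stood at 4.35% and 11.8% of its neutrophil-like level and Dcn at 1.86% and 13.3% of its FAP-like level in these cells, and their part in the values was not tested. Dcn was seen in 19.8% of these cells at 2 h and 13.6% at 9 h.

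Dendritic-like cells had more of the synthesis RNAs at 9 h, in a class of 151 and 119 cells whose name rests on 1 cluster, in which plasmacytoid dendritic markers scored next. Of the 33 members, 12 were measured, and 3 were higher and none lower, against 7.11% and 7.18% of 3009 genes. Idi1 was 37.1 and 144 CPM, 3.88-fold higher (2.79 to 5.48), Hmgcs1 52.6 and 110 CPM, 2.09-fold higher (1.53 to 2.86, but 1.94 under TMM scaling, short of the mark), and Cyp51 34.8 and 79.1 CPM, 2.27-fold higher (1.56 to 3.34). Fdps stood at 59.3 and 84.3 CPM and Msmo1 at 48.9 and 84.3. All 6 measured enzymes had a ratio above 1. Without the highest doublet scores the class held 135 and 93 cells, under the minimum of 100, so its ratios were not run there. At Leiden resolution 0.5 no dendritic-like class was found. Srebf2 stood at 138 and 123 CPM, Insig1 at 86.7 and 71.9 and Soat1 at 54.1 and 53.4. Pmvk stood at 57.8 and 70.9 CPM, Lipa at 57.1 and 66.8, Npc1 at 58.5 and 48.3 and Npc2 at 839 and 706. In this class Dcn stood at 0.306% of its FAP-like level at 2 h and 9.47% at 9 h, and S100a8 at 0.781% and 3.46% of its neutrophil-like level, and their part in the values was not tested. Dcn was seen in 35.1% of these cells at 2 h and 31.9% at 9 h. Abca1, Abcg1 and Mylip were below the count minimum in these cells. Cells with a UMI of Ccr7, the receptor of migrating dendritic cells, were 8.61% (13 cells) at 2 h and 57.1% (68 cells) at 9 h. Their synthesis sum was 227 and 892 CPM, and that of cells without Ccr7 was 427 and 683. Idi1 was 8.42 and 222 CPM in cells with Ccr7 and 39.8 and 56.6 CPM in cells without. The 13 cells with Ccr7 at 2 h held only 27 synthesis UMIs (sum 150 to 331 CPM), so their Idi1 level rests on very few UMIs. Cells with Ccr7 also differed between the times in other genes. Fscn1 was 16.8 and 134 CPM in them, and Cd209a was 1584 and 214 CPM (1124 and 448 in cells without). A difference in the mix of dendritic cells and a difference within them cannot be told apart here.

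**Figure D4:**
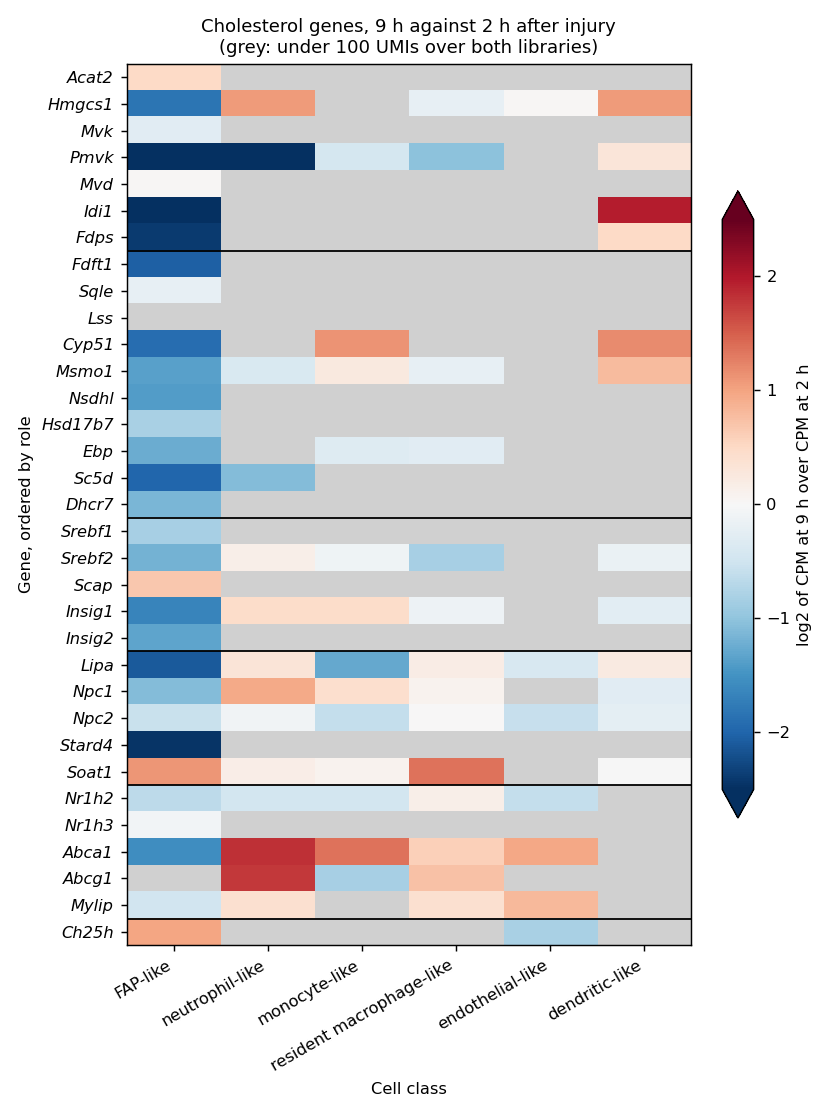
The log2 ratio of CPM at 9 h over CPM at 2 h for the 33 members (rows, ordered by role) in the 6 compared classes (columns), with blue for lower, red for higher and grey for members with fewer than 100 UMIs over both libraries. The FAP-like column is blue through most enzymes, while Abca1 is blue in FAP-like cells and red in neutrophil-like and monocyte-like cells.

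The classes with fewer cells are given as levels only. In satellite-like cells the synthesis sum was 529 CPM in 81 cells at 2 h and 204 CPM in 69 cells at 9 h. In tenocyte-like cells it was 327 and 225 CPM, and Abca1 was 91.5 and 23.6 CPM. In T or NK-like cells the sum was 323 and 379 CPM.

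The 26 other genes of the pathway, in 2 lists of 13, were read by the same rule. In FAP-like cells 12 of the 13 further synthesis and SREBP genes were measured, and 4 were lower. Scd2, a fatty acid desaturase, was 76.0 and 4.68 CPM (16.3-fold, 13.1 to 20.3). Fads1 was 36.4 and 6.58 CPM, Fads2 18.1 and 2.62, and Acss2 7.61 and 1.18. None was higher at the 2-fold mark, but the list was split, with 6 ratios above 1 and 6 below. Its median log2 ratio was -0.06. Tmem97, at a ratio of 1.99 (1.69 to 2.34), lay just short of the mark. Acaca (1.70), Fasn (1.46), Aacs (1.45) and Elovl6 (1.35) also had intervals above 1. Of 12 measured uptake, transfer and efflux genes, 2 (Cyp27a1 and Pltp) were lower and 1 (Gramd1b) was higher, beside a background of 20.5% lower and 15.7% higher in these cells, so this second list did not exceed it in either direction. In neutrophil-like cells 3 of 7 measured genes of this second list were higher, beside 9.34% of all measured genes: Arl4c, an LXR target, at 53.6 and 126 CPM, Rxra, the LXR partner, at 7.98 and 19.9, and Nceh1, an ester hydrolase, at 7.98 and 19.8. In the other compared classes the calls were Pltp lower in endothelial-like cells and dendritic-like cells, Scarb1 lower in monocyte-like cells and Arl4c higher in dendritic-like cells.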

How the data were processed

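Mononuclear cells of injured quadriceps were sequenced as 1 droplet 3′ library at 2 h and 1 at 9 h. The deposited matrices give raw UMI counts for each gene in each barcode. Cell Ranger 5.0.0 and the build mm10 are named in the submitters' processing notes. The annotation release is not named in the labels. The members and lists were chosen with earlier results of these data known.

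Cells with under 200 genes, under 500 UMIs or over 20% mitochondrial UMIs were removed, leaving 4900 of 5729 and 8147 of 8790 barcodes. Doublets were not removed, because Scrublet marked 6 cells (0.122%) in the first library and 0 in the second, fewer than the 0.5% required to use its calls. Both libraries were clustered together without batch correction in Scanpy 1.11.5 (10000 UMIs per cell, 2000 variable genes, 30 components, 15 neighbours, Leiden resolution 1, seed 0), and 3 of the 33 members (Ch25h, Mylip and Pmvk) were among the variable genes. A cluster was named for its best-scoring marker list, if that list had at least 3 markers in 10% of cells and its 10 leading genes held at least as many of its markers as of any other list. A further requirement, a score 1.5 times the next, was dropped after its results were seen. It would leave 2 of 19 clusters, the dendritic-like and the tenocyte-like, unnamed.

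Summed UMIs per class were scaled to CPM, with exact Poisson intervals for levels, exact conditional binomial intervals for ratios and Clopper-Pearson intervals for shares (95%). They treat UMIs as independent and leave out the spread between cells. All 33 members are named by role, with values in each compared class that holds at least 100 of their UMIs, and the other pathway genes where past the 2-fold mark. TMM factors came from edgeR 4.0.16. The ratios, their intervals and the 2-fold calls were run on simulated Poisson counts with known folds, at the depth of the FAP-like comparison. The intervals assume such counts, so this checks the calculation only. Clustering, naming, thinning and the spread between cells or libraries were not simulated. Alternatives covered TMM scaling, equal weight per cell, a 10% mitochondrial limit, removal of the highest doublet scores, Leiden resolutions 0.5 and 2, clustering without the members, removal of the 1% of cells with the most UMIs of a gene, no count filter, a 1.5-fold mark and thinning to 2000 UMIs or none. RNA carried over from other cells was read from the levels of Dcn, S100a8 and C1qa in the other classes. These levels do not separate free RNA from doublets.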

Additional observations from a re-analysis of the deposited data

Results flagged for a closer look

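The direction of 4 members differed between classes at the 2-fold mark. The difference between classes was not tested, since each time has 1 library. The share of all measured genes with opposite calls between classes is not given, so these 4 are not set against a background. Hmgcs1 was higher at 9 h in neutrophil-like cells (ratio 2.08) and dendritic-like cells (2.09) and lower in FAP-like cells (0.28). Idi1 was higher in dendritic-like cells (3.88) and lower in FAP-like cells (0.17). Cyp51 was higher in monocyte-like cells (2.17) and dendritic-like cells (2.27) and lower in FAP-like cells (0.27). Abca1 was higher in neutrophil-like cells (3.54) and monocyte-like cells (2.58) and lower in FAP-like cells (0.34). The Hmgcs1 value in neutrophil-like cells rests on 19 and 93 UMIs. Both higher Hmgcs1 calls were lost under an alternative, at 1.90 in neutrophil-like cells without the highest doublet scores and at 1.94 in dendritic-like cells under TMM scaling.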

How the results depend on the processing

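Of 91 member ratios in the compared classes, 32 passed the 2-fold mark. Under every alternative run, 25 of these passed it, and 7 lost it under at least 1. Dendritic-like ratios were run under 6 alternatives, against 9 in FAP-like cells and 8 in the other classes. Of the 59 others, 6 crossed it under at least 1, and none of the called ratios changed direction. In FAP-like cells, Dhcr7 and Npc1 lost the mark. In resident macrophage-like cells, Soat1 (ratio 1.69 at its lowest) and Pmvk lost it. Hmgcs1 lost it in dendritic-like cells under TMM scaling and in neutrophil-like cells without the highest doublet scores (1.90). Its neutrophil-like ratio was 19.6 without the 1% of cells with the most UMIs of the gene. That removal can take out most of its few UMIs at 2 h, so 19.6 is no check of the ratio. Sc5d lost the mark in neutrophil-like cells.

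Under TMM scaling, the synthesis ratio was 0.378 in FAP-like, 0.329 in neutrophil-like and 1.34 in monocyte-like cells, and the efflux ratio 0.528 in FAP-like and 3.02 in neutrophil-like cells. Members higher were 2 in FAP-like and 1 in endothelial-like cells, and 1 member, an enzyme, was lower in neutrophil-like cells. With cells weighted equally, the efflux ratio was 0.525 in FAP-like and 0.623 in dendritic-like cells, and the dendritic-like synthesis ratio 2.25. Members higher were then 2 in FAP-like, 2 in endothelial-like and 2 in resident macrophage-like cells, members lower 2 in resident macrophage-like cells, and 1 member, an enzyme, was lower in neutrophil-like cells. With up to 10% mitochondrial UMIs, the endothelial-like synthesis ratio turned to 0.707, and with clustering without the 33 members to 0.931, when 2 members were higher in FAP-like cells; the cause was not tested.

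Without the highest doublet scores, the FAP-like efflux ratio was 0.423, members higher were 2 in FAP-like, 2 in endothelial-like and 1 in monocyte-like cells, enzymes higher were 0 in neutrophil-like and 0 in monocyte-like cells, and members and enzymes lower were 0 and 0 in resident macrophage-like cells. At Leiden resolution 0.5 no dendritic-like class was found, and the cluster named resident macrophage-like (452 and 351 cells) also took in dendritic-like cells. In this mixed cluster the synthesis ratio turned to 1.30, with 1 enzyme higher and 0 members and 0 enzymes lower. In FAP-like cells 2 members were then higher. At resolution 2 the resident macrophage-like synthesis ratio was 0.637, with 0 members higher and 0 enzymes lower, in a class of 232 and 161 cells. In monocyte-like cells 1 member and 0 enzymes were then higher.

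With no filter on low counts, members and enzymes higher were 8 and 7 in endothelial-like, 9 and 7 in neutrophil-like, 8 and 5 in monocyte-like, 11 and 9 in dendritic-like and 2 and 1 in resident macrophage-like cells, and 2 members were higher in FAP-like cells. Members and enzymes lower were 7 and 7 in neutrophil-like, 2 and 1 in monocyte-like and 3 and 3 in resident macrophage-like cells. At a 1.5-fold mark, members higher were 3 in FAP-like, 2 in endothelial-like and 3 in resident macrophage-like cells, and members lower 2 in endothelial-like, 3 in monocyte-like and 2 in resident macrophage-like cells. No share over all genes is given for any alternative, so these counts are not read as results about the members. Without the filter a call can rest on very few UMIs, as for Mvd in endothelial-like cells, with 0 and 3. In 2 alternatives added after seeing the data, the FAP-like synthesis ratio without the Saa1-led cluster was 0.359, and the neutrophil-like synthesis ratio without Pmvk was 0.715.

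No paired analysis was possible because each time has 1 library. Counting error, not the spread between animals, is what every interval covers. In the classes other than FAP-like, most enzymes were under the count minimum and were not called. Some of their intervals excluded 1, as for Sqle in monocyte-like cells (8.0, 2.54 to 40.5, from 3 and 39 UMIs) and Mvd in neutrophil-like cells (6.37, 2.05 to 32.1, from 3 and 45 UMIs).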
